A study of Mus musculus with 8 samples.

Results

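Microglia of A20 conditional-knockout (cKO) mice were compared with microglia of control mice, both collected 3 days after sciatic nerve transection. The comparison used 2 of the 8 single-cell RNA-seq libraries of the series, picked by genotype and day from the labels. A barcode was kept as a cell when it held at least 1000 unique molecular identifiers (UMIs, one for each captured RNA molecule), at least 500 genes and at most 10% mitochondrial UMIs. This left 558 of 579 barcodes in A20 cKO day 3 and 2117 of 2171 in control day 3, together 2675 of the 14626 kept cells of the series. Control animals were Cx3cr1-yfp-creER/+ mice on C57BL/6, and A20 cKO animals carried Tnfaip3 fl/fl in addition. Both groups were young adults with the sciatic nerve cut on both sides, and YFP (+) cells were sorted from the lumbar cord. The study reports that Tnfaip3 fl/fl animals were treated with tamoxifen, which releases the Cre. Its methods give tamoxifen without a genotype, and treatment is not stated for control animals or for each library. Cre and YFP are both driven from the Cx3cr1 locus, which circulating monocytes and border macrophages also use. Cords of 3 animals were pooled into each library, and sorted cells were held in a medium with TGF-beta 2, IL34 and cholesterol before capture. Each group was therefore 1 library, no test between the groups was possible, and the 95% intervals given after values cover counting error only.

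Tnfaip3 encodes A20, a ubiquitin-editing enzyme that cuts short signalling from TNF and Toll-like receptors to NF-kB and is itself an NF-kB target gene. NF-kB dimers that reach the nucleus switch on chemokines, cytokines and survival genes, together with inhibitors such as A20 that close the loop. Microglia, the macrophages that live in brain and spinal cord tissue, express at rest a set of sensing and support genes called homeostatic, and lower many of them after injury while chemokine, antigen-presentation and lipid-handling genes come up.

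The sums of UMIs over kept cells were 2541386 in A20 cKO day 3 and 7286748 in control day 3, and the median cell held 4274 and 3191 UMIs. Levels are CPM, a gene's UMIs after both libraries are brought to the same total, and a gene entered the comparison when its 2 sums added up to at least 100 UMIs, which 8488 genes did. All 10 microglia identity markers were found in both libraries, and 6 A20 cKO and 17 control cells showed fewer than 3 of them. The 2 libraries shared 20 barcodes, 3.45% of the A20 cKO and 0.921% of the control barcodes. Markers of other cell types were low on the whole. The summed level of 10 oligodendrocyte markers was 285 CPM in A20 cKO and 232 CPM in control, that of 9 astrocyte markers 321 and 272 CPM, and that of 9 monocyte markers 74.0 and 36.5 CPM. The sum of 9 border macrophage markers was 13.8 and 5.21 CPM, with Cd163 and Cd209f at 0 UMIs in both libraries. Choroid plexus and ependymal markers summed to 419 and 238 CPM, but 1 barcode held 951 of the 1102 Ttr UMIs of A20 cKO day 3, and in cells thinned to 2000 UMIs the sum was lower in A20 cKO, at 0.0390 and 0.687 UMIs per cell. The monocyte and border macrophage sums were higher in A20 cKO, like most immune lists below, and their part in those results was not tested. The monocyte and border macrophage sums stayed under 100 CPM, and no cell of either library held UMIs of 3 or more monocyte markers.

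In A20 cKO day 3, 158 genes (1.86% of the genes tested) were at least 2-fold higher than in control day 3 and 204 (2.40%) at least 2-fold lower. The counting interval of each of these genes excluded 0. This follows from the filter on UMIs together with the 2-fold line, so it adds no support to the calls. At 1.5-fold there were 423 higher (4.98%) and 841 lower (9.91%). At 4-fold the balance was the other way, with 42 genes higher (0.495%) and 19 lower (0.224%). The median log2 ratio of all genes tested was -0.12, so a gene at 0 stood slightly above the middle, and the list medians below are to be read against -0.12. Rescaling by TMM factors, which adds 0.12 to every log2 ratio and brought the median to 0.00, gave 205 genes higher and 146 lower. Where the mean level reached 50 CPM, the 4 largest positive ratios belonged to the chemokines Cxcl13 and Ccl5 and the MHC class I genes H2-Q7 and H2-Q6, and the largest negative one to Fcrls, a homeostatic gene. In summed UMIs, fewer cells with a gene and less RNA of it per cell cannot be told apart, so shares of cells are given further below.

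**Figure D1:**
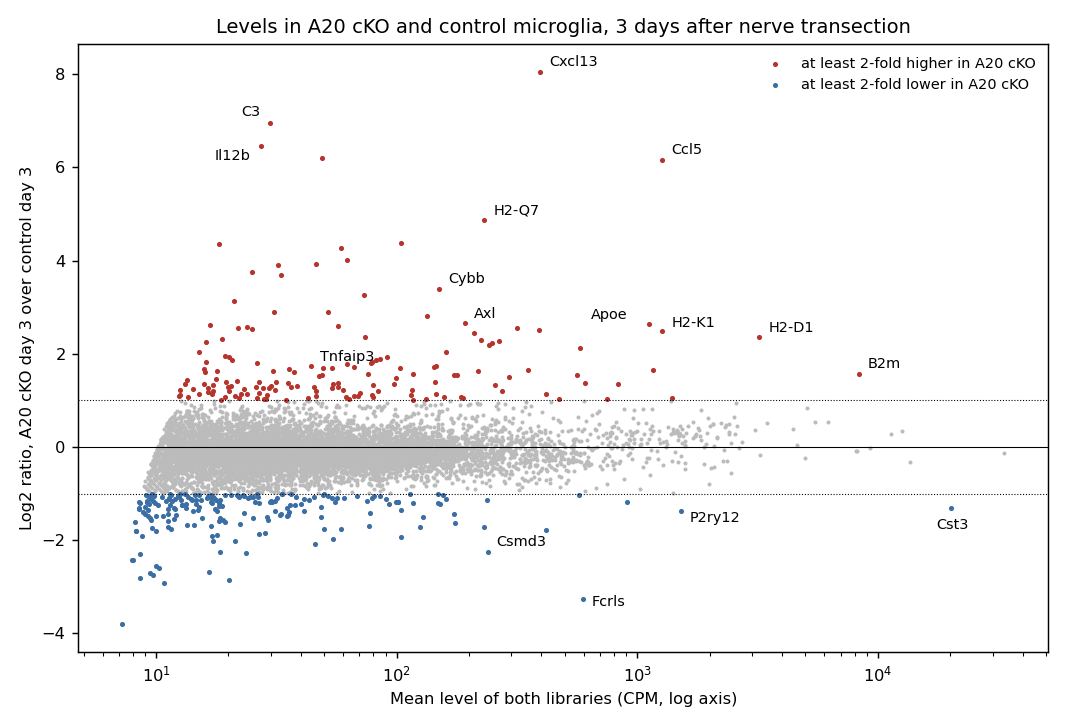
Each point is 1 of the 8488 genes tested, placed by its mean level in both libraries (CPM, log axis) and its log2 ratio of A20 cKO day 3 over control day 3, with dotted lines at 2-fold. The cloud sits near -0.12, Cxcl13 and Ccl5 stand at the top with log2 ratios of 8.06 and 6.17, and Fcrls lies far below its neighbours of like level at -3.25.

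Tnfaip3 itself, the floxed gene on chr10:19000910-19015657 (minus strand, GRCm38), had 172 UMIs or 67.7 CPM (57.9 to 78.6) in A20 cKO and 148 UMIs or 20.3 CPM (17.2 to 23.9) in control. Its log2 ratio was 1.74 (1.41 to 2.06), so the library labelled A20 cKO held more Tnfaip3 RNA than the control. The 3′ tag need not lie in the floxed part, so these UMIs do not show whether the gene was cut. Among 17 genes of A20 and its ubiquitin-editing partners, only Tnfaip3 and Tnip1, an A20-binding protein, were at least 2-fold higher, 0 were 2-fold lower, and the median was -0.11. Tnip1 was at 23.2 CPM in A20 cKO and 9.61 CPM in control, and Traf2, an adaptor of TNF receptors, at 38.2 and 20.9 CPM. The median of the list was thus close to that of all genes tested.

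Genes of the NF-kB machinery were higher in part. Of 13 subunits, kinases and inhibitors counted, 4 were at least 2-fold higher and 0 lower, with a median of 0.38. Nfkb2 (27.1 against 8.78 CPM) and Relb (56.3 against 18.4 CPM), the subunits of the non-canonical dimer, were among these 4. The others were the I-kappa-B family genes Nfkbie (29.1 against 11.8 CPM) and Nfkbiz (76.3 against 31.8 CPM). In this order the 4 log2 ratios were 1.63, 1.61, 1.30 and 1.26. Nfkbia, which encodes I-kappa-B alpha and was the most abundant of the list, was at 558 and 374 CPM with a log2 ratio of 0.58 (0.48 to 0.67). The canonical subunits Rela and Rel, chosen after their values were seen, had log2 ratios of -0.24 and -0.20.

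Of 26 NF-kB target effectors 18 were counted, Il12b among them only through A20 cKO. Of these 18, 7 were at least 2-fold higher and 1 lower, with a median of 0.73. Il12b, the p40 chain of IL-12 and IL-23, had 138 UMIs in A20 cKO and 4 in control, a log2 ratio of 6.46 (5.24 to 8.52). Tlr2, a receptor for bacterial lipoproteins, was at 396 CPM in A20 cKO and 86.3 CPM in control, a log2 ratio of 2.20 (2.05 to 2.34). Pim1, a survival kinase chosen after its value was seen, was the member at least 2-fold lower, at 24.0 and 48.9 CPM, and was inside 2-fold after TMM scaling.

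Chemokines were the list farthest from the rest of the genes. Of 16 members 11 passed the filter on UMIs, Cxcl13 among them only through A20 cKO. Of these 11, 8 were at least 2-fold higher and 1 lower, and the median was 2.45, or 1.49 with no filter on genes. Cxcl13, which draws B cells, lies at chr5:95956951-95961068 and was at 785 CPM (751 to 821) in A20 cKO and 2.88 CPM (1.78 to 4.41) in control, a log2 ratio of 8.06 (7.47 to 8.79). Ccl5, which draws T cells and monocytes, lies at chr11:83525778-83530518 and was at 2508 CPM in A20 cKO and 34.9 CPM in control, a log2 ratio of 6.17 (5.99 to 6.36). Both were rare in control cells and among the better counted RNAs of A20 cKO cells. The monocyte chemoattractant Ccl7 was at 97.6 and 16.2 CPM, Cxcl16 at 542 and 92.5 CPM, and the macrophage inflammatory protein gene Ccl4 at 662 and 116 CPM, for log2 ratios of 2.59, 2.55 and 2.51. Ccl12, the most abundant chemokine in control, was nearly level at 2290 and 1991 CPM, a log2 ratio of 0.20. Ccl6 went the other way, at 58.2 and 191 CPM with a log2 ratio of -1.71 (-1.97 to -1.47). The lists of chemokines and NF-kB target effectors share Ccl5 and Cxcl16. Ccl6 is also on the list of disease-associated genes. Cxcl10, named only for this overlap, is also on the list of interferon-stimulated genes and had a log2 ratio of 1.49.

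**Figure D2:**
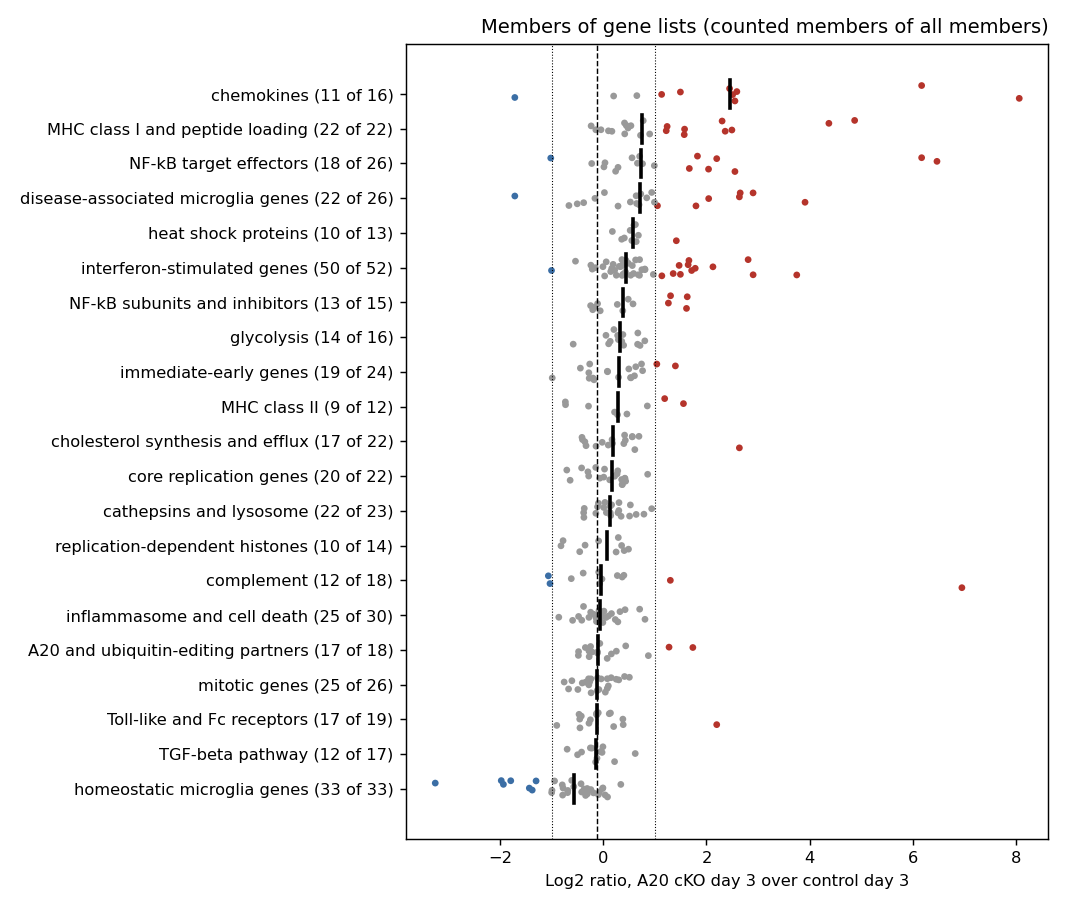
Each point is a counted member of 1 of the 21 pathway lists, placed by its log2 ratio of A20 cKO day 3 over control day 3, with members at least 2-fold higher in red and at least 2-fold lower in blue. Thick ticks are list medians and the dashed line is the median of all genes tested (-0.12), and chemokines at 2.45 and homeostatic microglia genes at -0.57 are the 2 ends.

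MHC class I genes were higher in A20 cKO across the heavy chains. The list holds the heavy chains, the shared light chain B2m and the machinery that cuts and loads peptides for display to CD8 T cells. Of 22 counted, H2-Q6 among them only through A20 cKO, 9 were at least 2-fold higher and 0 lower, and the median was 0.75. B2m was at 12470 CPM (12333 to 12608) in A20 cKO and 4202 CPM (4155 to 4249) in control, a log2 ratio of 1.57, which made it one of the most abundant RNAs of A20 cKO cells. The classical heavy chains H2-D1 (5375 against 1045 CPM) and H2-K1 (2160 against 384 CPM) had log2 ratios of 2.36 and 2.49. The non-classical H2-Q7 (447 against 15.2 CPM) and H2-Q6 (200 against 9.61 CPM) had larger ratios, 4.87 (4.59 to 5.17) and 4.37 (4.02 to 4.76). H2 genes are near copies of one another, so their division of UMIs is uncertain. The loading genes were closer to level, and Tap1, the peptide transporter, Psmb8 and Psmb9, immunoproteasome subunits, and the chaperone Calr, all chosen after their values were seen, had log2 ratios of 0.77, 0.45, 0.72 and -0.14.

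Promoter sequence was read beside these values, because 9 genes of 1 pathway were higher together. RefSeq windows of GRCm38.p6 from 250 bases before to 50 after a start were found for 6575 of the genes tested. They were searched on both strands for the kappa-B consensus, the binding motif of NF-kB, and for GAAANNGAAA, the core of the interferon-stimulated response element (ISRE). A match only says that the letters are present. A window without a match may still hold a site whose letters depart from these exact patterns. The kappa-B consensus was in 4.51% of all 32851 windows and in 6.11% of the genes tested, against 22 of the 97 genes at least 2-fold higher that had a window (22.7%) and 5 of the 152 lower (3.29%). The ISRE core was in 3.44% of all windows and in 4.09% of the genes tested, in 17 of the 97 higher genes (17.5%) and in 4 of the 152 lower ones (2.63%). Of 8 MHC class I genes at least 2-fold higher with a window, 8 held the kappa-B consensus, and of 11 others of the list 0 did. H2 promoters share descent, so these are not separate cases. Among interferon-stimulated genes the ISRE core was in 4 of 8 genes at least 2-fold higher and in 16 of 27 between the 2-fold lines, and the kappa-B consensus in 3 of 8 and 0 of 27. NF-kB target effectors and chemokines did not show such a split, and lists not given here were not counted in this way. The kappa-B consensus was also in Tnfaip3, Tnip1, Nfkb2 and Nfkbie, all at least 2-fold higher. It was in Nfkbia and some other members of their lists between the 2-fold lines as well. Among NF-kB target effectors the kappa-B consensus was in 1 of 4 genes at least 2-fold higher and in 4 of 9 between the lines. Among chemokines it was in 1 of 3 and in 1 of 2, and Cxcl13 and Il12b had no match. Of 25 homeostatic genes with a window, 0 held either motif. The 250 bases before the start are shown for 2 heavy chains, for B2m and for Isg15, an interferon-stimulated gene with a log2 ratio of 0.56. They are H2-K1 at chr17:34000348-34000597 (minus strand), H2-Q7 at chr17:35438905-35439154 (plus), B2m at chr2:122147437-122147686 (plus) and Isg15 at chr4:156200819-156201068 (minus), each printed 5′ to 3′ along its gene, with the matched letters in capitals. The capitals are kappa-B matches in H2-K1 and H2-Q7, an ISRE core followed by a kappa-B match on the other strand in B2m, and overlapping ISRE cores in Isg15.
H2-K1: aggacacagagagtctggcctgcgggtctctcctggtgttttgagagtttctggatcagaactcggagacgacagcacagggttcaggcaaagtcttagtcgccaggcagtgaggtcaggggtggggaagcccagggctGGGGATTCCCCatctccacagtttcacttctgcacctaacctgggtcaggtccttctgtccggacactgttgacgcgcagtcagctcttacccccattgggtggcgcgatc
H2-Q7: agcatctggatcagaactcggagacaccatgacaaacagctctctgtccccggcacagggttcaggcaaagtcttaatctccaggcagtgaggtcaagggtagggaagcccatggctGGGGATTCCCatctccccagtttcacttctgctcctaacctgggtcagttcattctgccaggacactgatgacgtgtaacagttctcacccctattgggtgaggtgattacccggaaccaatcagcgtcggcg
B2m: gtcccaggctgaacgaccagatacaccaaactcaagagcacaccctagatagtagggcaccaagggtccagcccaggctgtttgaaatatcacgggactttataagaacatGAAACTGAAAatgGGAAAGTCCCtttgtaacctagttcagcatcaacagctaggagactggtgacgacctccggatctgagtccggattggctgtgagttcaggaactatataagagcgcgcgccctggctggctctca
Isg15: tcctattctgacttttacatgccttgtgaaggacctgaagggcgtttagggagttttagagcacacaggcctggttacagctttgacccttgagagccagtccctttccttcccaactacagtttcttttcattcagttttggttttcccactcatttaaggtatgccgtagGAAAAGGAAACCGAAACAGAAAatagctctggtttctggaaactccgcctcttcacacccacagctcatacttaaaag

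Interferon-stimulated genes split within the list. Of 50 counted, Ifi44 and Oas2 among them only through A20 cKO, 12 were at least 2-fold higher and 1 lower, with a median of 0.44. Of the 50, 44 lay above 0, and 40 had the whole counting interval above 0. Ifi44 (46.8 against 3.43 CPM), the RNase L activator Oas2 (91.7 against 12.2 CPM), Pydc4 (235 against 33.5 CPM) and Lgals3bp (937 against 215 CPM) had log2 ratios of 3.75, 2.90, 2.81 and 2.12. Ly6e, the most abundant of the list, was at 2157 and 1741 CPM, a log2 ratio of 0.31. Some antiviral genes that are usual readouts of interferon signalling were level between the 2 day 3 libraries, below the median of the list. Rsad2 (viperin), Mx1 and Ifit1, chosen after their values were seen, had log2 ratios of -0.00, 0.06 and 0.17, and the guanylate-binding gene Gbp7, chosen in the same way, was the member at least 2-fold lower, at 75.9 and 152 CPM. TMM scaling puts Gbp7 inside 2-fold and Rsad2 slightly above 0. These ratios hold for day 3 only. On day 2, Ifi44, Oas2 and Pydc4 had larger log2 ratios, 7.52, 6.50 and 7.95, with fewer UMIs of each in control. Lgals3bp (2.18) and Ly6e (0.19) were near their day 3 values. Control day 2 stands apart from control day 3, as given below, and the reason for the higher control levels on day 3 was not tested.

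MHC class II genes were uneven. Of 9 counted among 12, 2 were at least 2-fold higher and 0 lower, with a median of 0.28, or -0.03 with no filter on genes. Cd74, the invariant chain, was at 266 and 90.6 CPM, a log2 ratio of 1.55 (1.40 to 1.71), and the co-stimulator Cd80 at 22.8 and 10.0 CPM. The peptide-exchange gene H2-DMa, the most abundant, was on the other side at 264 and 440 CPM, a log2 ratio of -0.73.

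Genes of the disease-associated microglia programme, which covers lipid uptake, lysosome and phagocytosis genes, were higher in part. Of 22 counted, Itgax and Lgals3 among them only through A20 cKO, 7 were at least 2-fold higher and 1 (Ccl6) lower, with a median of 0.71. Itgax, which encodes CD11c, was at 60.6 CPM in A20 cKO and 3.98 CPM in control, a log2 ratio of 3.91 (3.35 to 4.55). The galectin gene Lgals3 was at 54.7 and 7.27 CPM, and the phagocytic receptor Axl at 332 and 52.7 CPM, for log2 ratios of 2.90 and 2.65. Apoe, the main lipid carrier of the brain, was at 1928 CPM (1875 to 1983) and 310 CPM (297 to 323), a log2 ratio of 2.64. The programme was not uniform. Ctsd, its most abundant member and a lysosomal protease, had a log2 ratio of 0.53, and Spp1 and Cd68, chosen after their values were seen, had -0.66 and -0.50. Apoe is also on the list of cholesterol genes, of which it was the only one of 17 past 2-fold, and the median of that list was 0.18.

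Other named genes at the top of the ranking were on no list. Ass1, which makes argininosuccinate in the arginine cycle, was at 112 and 5.76 CPM, the inhibitory receptor Lilrb4a at 118 and 7.27 CPM, Cybb, the catalytic subunit of the phagocyte NADPH oxidase, at 273 and 25.9 CPM, and Il2rg, the common cytokine receptor gamma chain, at 132 and 13.7 CPM. Ass1 and Il2rg had log2 ratios of 4.26 and 3.26, and Cybb was 10.5-fold higher. Lilrb4a has a close copy with which UMIs could be shared. Ass1 and Lilrb4a had 42 and 53 UMIs in control and passed the filter on UMIs only through A20 cKO.

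**Figure D3:**
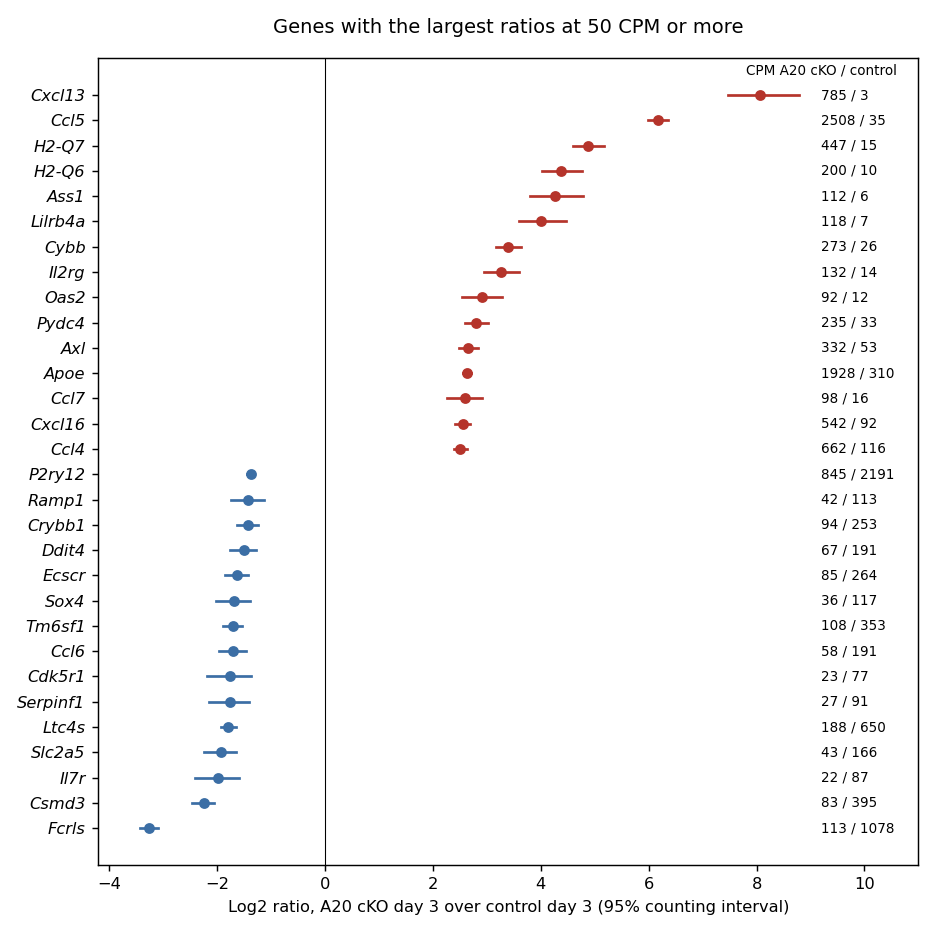
Points are the log2 ratios of A20 cKO day 3 over control day 3 for the 15 largest positive and 15 largest negative genes whose mean level reached 50 CPM, bars are 95% counting intervals, and the CPM of both libraries stand at the right. The positive side spans 2.51 (Ccl4) to 8.06 (Cxcl13) and the negative side -1.37 (P2ry12) to -3.25 (Fcrls).

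Homeostatic microglia genes were lower as a group. All 33 were counted, 7 were at least 2-fold lower and 0 higher, 30 lay below 0, and the median was -0.57. Fcrls, an Fc receptor-like gene on chr3:87250758-87263738 that marks microglia, was at 113 CPM (100 to 127) in A20 cKO and 1078 CPM (1054 to 1102) in control, a log2 ratio of -3.25 (-3.43 to -3.08). The interleukin 7 receptor gene Il7r (56 against 636 UMIs), the fructose transporter Slc2a5 (43.3 against 166 CPM) and the leukotriene C4 synthase Ltc4s (188 against 650 CPM) had log2 ratios of -1.97, -1.93 and -1.79. The purinergic receptor P2ry12, by which microglia sense ADP, was at 845 and 2191 CPM, and Cst3 (cystatin C), the second most abundant RNA of both sums together, at 11597 and 28554 CPM, for log2 ratios of -1.37 and -1.30. The 10 microglia identity markers, Fcrls and P2ry12 among them, were all below 0, with a median of -0.49 and a summed level of 15063 CPM in A20 cKO and 20304 CPM in control. Fcrls and P2ry12 were the 2 past 2-fold, and Tmem119, a membrane protein of microglia chosen after its value was seen, had a log2 ratio of -0.36.

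The remaining genes with large negative ratios were on no list of homeostatic genes, apart from Crybb1 (93.7 against 253 CPM). Csmd3, a large CUB and sushi domain protein, was at 83.0 and 395 CPM, the transcription factor Sox4 at 36.2 and 117 CPM, the mTORC1 inhibitor Ddit4 at 66.9 and 191 CPM and the CGRP receptor subunit Ramp1 at 42.1 and 113 CPM, for log2 ratios of -2.25, -1.69, -1.51 and -1.42. Serpinf1, which encodes PEDF, the CDK5 activator Cdk5r1, Tm6sf1 and Ecscr had log2 ratios between -1.76 and -1.63.

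Complement genes lay on both sides. Of 18 members 12 were counted, C3 among them only through A20 cKO. Of these 12, 2 were at least 2-fold higher and 2 lower, with a median of -0.05, or 0.27 with no filter on genes. C3, the central component, had 150 UMIs (59.0 CPM) in A20 cKO and 3 UMIs (0.412 CPM) in control, a log2 ratio of 6.95 (5.59 to 9.46), and all 3 control UMIs were in barcodes that an A20 cKO library also held. C4b was at 42.9 and 17.4 CPM, a log2 ratio of 1.30. Of the lower genes, the C5a receptor C5ar2 (38 against 230 UMIs) had a log2 ratio of -1.06 and was inside 2-fold after TMM scaling. C1qa, the most abundant, was nearly level at 12392 and 10253 CPM.

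Other immune and stress lists held few genes past 2-fold. Of 17 Toll-like and Fc receptor genes only Tlr2 was at least 2-fold higher, and the median was -0.12, the same as that of all genes. Fcgr3, an activating Fc receptor, was the lowest of them at 720 and 1342 CPM, a log2 ratio of -0.90. Of 25 inflammasome and cell death genes 0 were past 2-fold in either direction, with a median of -0.07 and a range from -0.86 (Fadd) to 0.81 (Zbp1, a sensor of nucleic acids). Against the control of the same day, Zbp1 had log2 ratios of 3.16 in naive animals, 4.18 on day 1 and 4.27 on day 2. Its control UMIs were 861 on day 3 and 166 on day 2, although control day 2 was the larger library. Of 10 heat shock genes 10 were above 0, 1 was at least 2-fold higher (Hsph1, 31.5 against 11.8 CPM), and the median was 0.57. Of 19 immediate-early genes, which answer stimuli and also tissue dissociation within minutes, 2 were at least 2-fold higher, Egr1 (210 against 79.7 CPM) and Atf3 (38.6 against 18.8 CPM), with a median of 0.30. Immediate-early and heat shock RNAs thus stood above the middle in the same library as the chemokines, and their part in those results was not tested.

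Metabolic, lysosomal and growth factor lists were closer to level. The median was 0.33 for 14 glycolysis genes, 0.14 for 22 genes of cathepsins and lysosome and -0.13 for 12 genes of the TGF-beta pathway, with 0 genes past 2-fold in all 3. Ctsb, a lysosomal protease, stood highest among the second list at 3389 and 1768 CPM, a log2 ratio of 0.94 that TMM scaling brought past 2-fold (1.06), and Aldoa, a glycolytic enzyme, highest in the first at 334 and 191 CPM.

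Cell cycle genes were also near level on day 3. Of 20 core replication genes, 25 mitotic genes and 10 replication-dependent histone genes, 0 were past 2-fold, and the medians were 0.17, -0.12 and 0.08. Rrm2, a subunit of ribonucleotide reductase, was at 38.6 and 21.3 CPM, Top2a, the topoisomerase of dividing cells, at 147 and 156 CPM, and Cenpf, a kinetochore protein, at 34.6 and 58.7 CPM. Shares of cells were compared after each cell was thinned to 2000 UMIs, which kept 538 A20 cKO and 1878 control cells and left out 20 and 239 shallower ones. UMIs of at least 3 replication genes and of fewer than 3 mitotic genes were found in 5.39% of A20 cKO and 6.44% of control cells, a difference of -1.05 percentage points (-3.06 to 1.41). UMIs of at least 3 mitotic genes were found in 8.74% and 9.85%, a difference of -1.11 points (-3.66 to 1.86). With another random thinning the differences were 1.07 (-1.10 to 3.72) and -2.50 points (-4.93 to 0.363). The sign of the replication difference thus changed with the random draw, each of these 4 intervals included 0, and no difference was detectable at this depth. Without thinning, the deeper A20 cKO cells gave a replication share 4.46 points higher.

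Single cells showed which differences were broad. UMIs of MHC class I genes per thinned cell had a median of 48 in A20 cKO and 17 in control, and 97.4% of A20 cKO cells exceeded 27 UMIs, the 90th percentile of control cells. Homeostatic genes had a median of 80 and 136 UMIs, and 65.6% of A20 cKO cells fell under 90 UMIs, the 10th percentile of control cells. NF-kB target effectors had medians of 7 and 2 UMIs, with 70.8% of A20 cKO cells above the control 90th percentile, and disease-associated genes medians of 55 and 34, with 61.7% above. Single abundant members carried much of these shifts. Ccl5 gave 5.13 of the difference of 7.95 UMIs per cell in NF-kB target effectors, and Cst3 -36.4 of the -56.4 in homeostatic genes. With the member of the largest part left out, a choice made after the values were seen, the percentage of A20 cKO cells past the control percentile was 90.5 for MHC class I without B2m, 42.9 for NF-kB target effectors without Ccl5, 46.3 for homeostatic genes without Cst3 and 50.7 for disease-associated genes without Fth1. Without thinning, where A20 cKO cells are deeper, 29.2% of them fell under the control 10th percentile of homeostatic UMIs. Interferon-stimulated genes had medians of 30 and 13 UMIs, and 22.7% of A20 cKO cells passed the control 90th percentile of 43 UMIs, so that control cells with many such UMIs overlapped the upper range of A20 cKO cells.

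**Figure D4:**
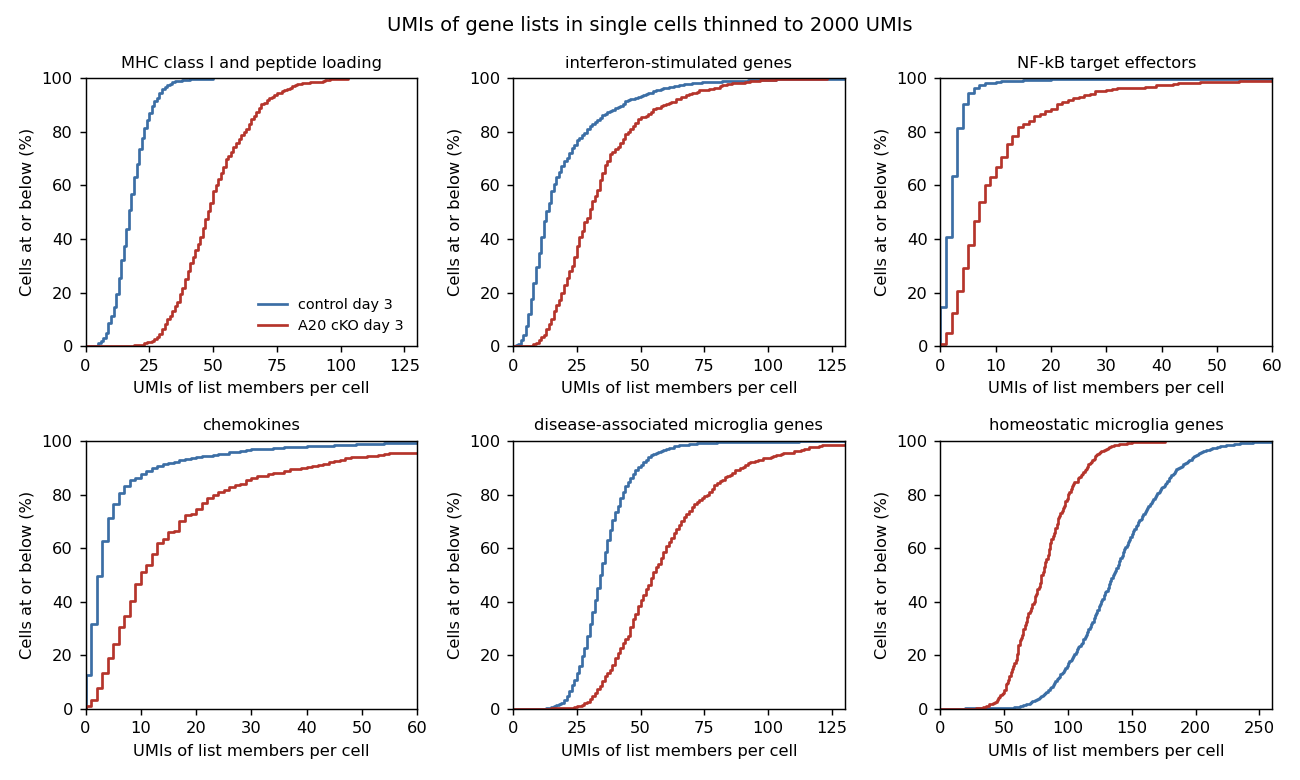
Lines give the percentage of cells (vertical axis) with at most a given number of UMIs of a list (horizontal axis) in cells thinned to 2000 UMIs, for 538 A20 cKO cells in red and 1878 control cells in blue. The MHC class I curves barely overlap (medians 48 and 17), while the interferon-stimulated curves approach each other at high counts.

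Genes differed in how they were spread over cells. Ccl5 was found in 74.3% (70.4 to 78.0) of A20 cKO and 2.45% (1.80 to 3.25) of control cells, H2-K1 in 95.7% and 50.3%, Apoe in 55.8% and 19.4%, and Axl in 46.5% and 8.09%. In control day 3 the 254 Ccl5 UMIs came from 63 of 2117 kept cells, with up to 36 in one cell, and 10 of them were in barcodes that an A20 cKO library also held. Cxcl13 was more concentrated. It was found in 19.1% (15.9 to 22.7) of A20 cKO cells and in 5 of 1878 control cells, and the top 5% of A20 cKO cells held 76.3% of its UMIs. Il12b was found in 3.53% (2.14 to 5.46) of A20 cKO cells, with up to 18 UMIs in one cell, and in 2 control cells. Fcrls was found in 15.4% (12.5 to 18.8) of A20 cKO and 79.2% (77.3 to 81.0) of control cells, P2ry12 in 74.0% and 95.4%, and Csmd3 in 14.7% and 52.6%. Cells with fewer than 3 identity markers served as a rough background for free RNA. They were few and shallow, with median depths of 1511.5 and 1258 UMIs. In control day 3, 8 of them held 3 or more endothelial or mural markers and 6 as many choroid plexus or ependymal markers. These cells are thus not a background of free RNA alone. Of 6 such cells in A20 cKO day 3, 1 had Ccl5, 0 had Cxcl13, 0 had Axl, 3 had H2-K1, 4 had B2m and 4 had Apoe. Of 17 such cells in control day 3, 0 had Ccl5, 7 had H2-K1, 9 had B2m and 17 had Apoe. Fcrls was in 0 of the 17, but it is one of the 10 identity markers. Its absence therefore follows in large part from how these cells were picked. How much of the Apoe in other cells was free RNA was not tested.

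The other 6 libraries place these levels. Control naive, day 1 and day 2 stand apart from the other 5 libraries. For example, the choroid plexus gene Ttr had 0 UMIs in kept cells of each of those 3 and at least 998 in each of the 5, so levels are set side by side without a test. Cxcl13 was at 536, 316, 871 and 785 CPM in A20 cKO naive, day 1, day 2 and day 3, and at no more than 2.88 CPM in any control library. Ccl5 was at 1435, 2001, 2756 and 2508 CPM in the A20 cKO libraries and between 6.26 and 34.9 CPM in the controls. Both chemokines were thus already high without injury. B2m was at 8053, 7927, 11198 and 12470 CPM in A20 cKO and between 3221 and 5041 CPM in control, so that the 2 genotypes did not overlap and day 3 was the highest of the 8. Axl was at 151, 181, 292 and 332 CPM, and Cybb at 134, 154, 247 and 273 CPM, and for both genes control day 3 (52.7 and 25.9 CPM) was the highest control. Apoe behaved otherwise. It was at 854, 1333, 1573 and 1928 CPM in A20 cKO and at 1113, 490, 470 and 310 CPM in control in the same order, so that the genotypes were on opposite sides in naive animals. Fcrls was at 512, 597, 116 and 113 CPM in A20 cKO and between 1078 and 1454 CPM in control, and P2ry12 at 2755, 1414, 908 and 845 CPM against 4026, 2680, 2463 and 2191 CPM. Pydc4 and Oas2 were at 33.5 and 12.2 CPM in control day 3 and at no more than 1.14 and 0.695 CPM in the other 3 controls. Their log2 ratios were therefore smaller on day 3, at 2.81 and 2.90, than on the other days. For Pydc4 the ratios were 6.95 in naive animals, 6.75 on day 1 and 7.95 on day 2. For Oas2 they were 7.09 in naive animals (with 0 control UMIs), 9.13 on day 1 and 6.50 on day 2.

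**Figure D5:**
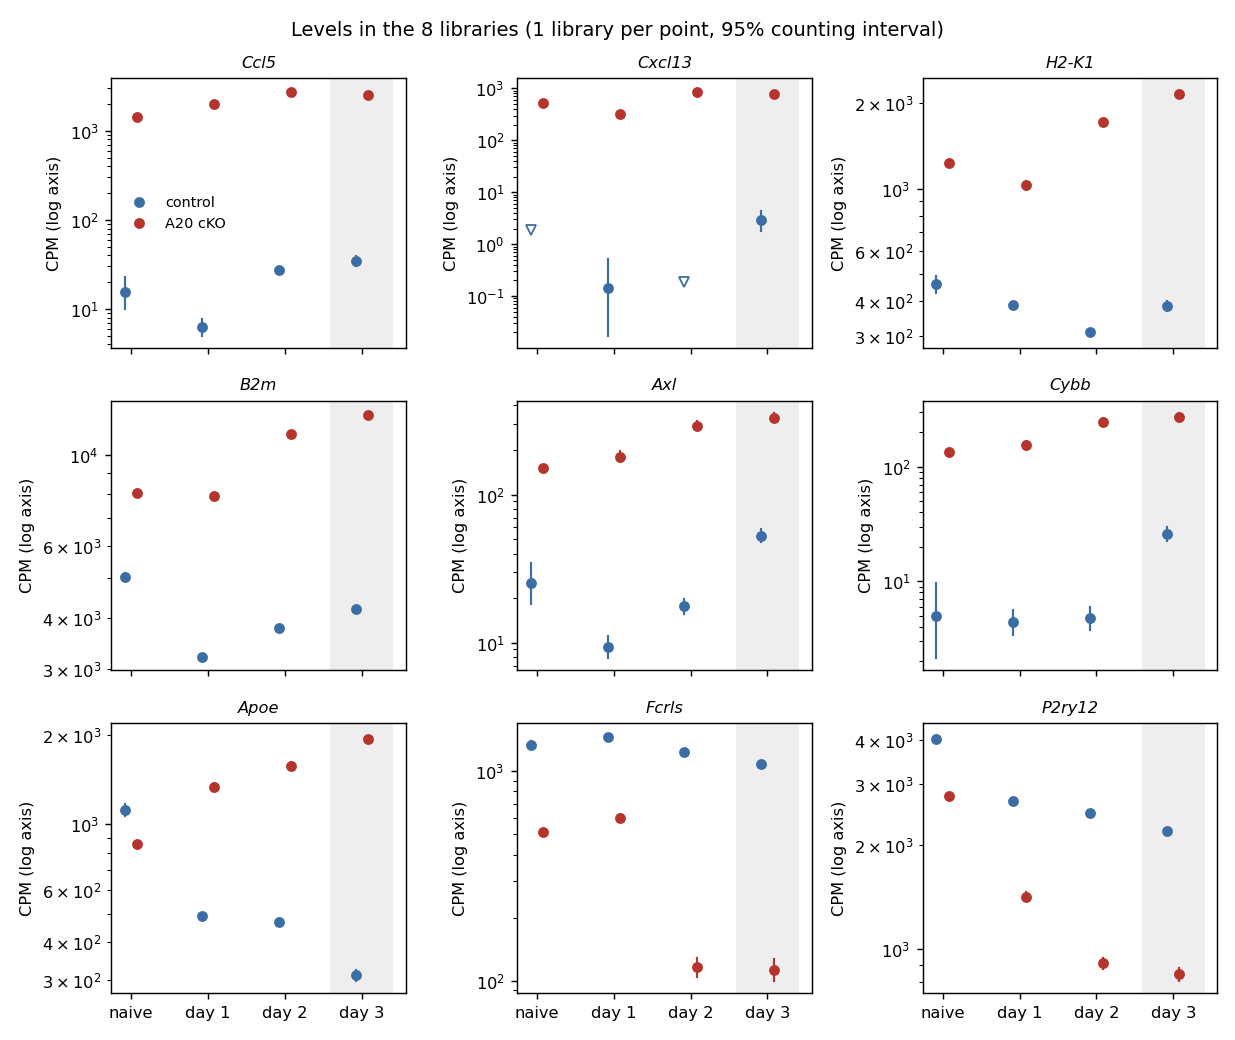
Points are levels (CPM, log axis) of 9 genes in the 8 libraries, control in blue and A20 cKO in red, bars are 95% counting intervals, open triangles mark 0 UMIs and stand at the level of 3 counts, and day 3 is shaded. Ccl5, Cxcl13, H2-K1, B2m, Axl and Cybb are higher in every A20 cKO library than in any control library, Apoe is not in naive animals, and Fcrls is lower in every A20 cKO library.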

How the data were processed

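Lumbar microglia were sorted by YFP and sequenced with 10x Genomics 3′ chemistry. The deposited values are raw UMI counts for each gene and barcode, not normalized. The submitters' processing notes name Cell Ranger 2.1.1 and mm10, and for the study's own cell filter the thresholds are not given in the sources used. All 27998 gene identifiers were used as deposited, and 27645 (98.7%) matched GENCODE M21 on GRCm38, the source of gene coordinates.

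Kept cells (at least 1000 UMIs, 500 genes, at most 10% mt- UMIs) were summed per library. Log2 ratios used CPM of the sums with 0.5 UMIs added to each sum, over genes whose 2 sums added up to 100 UMIs or more. No test was run, since cells are not replicates and a group was 1 library. Intervals are 95% and cover counting error only: exact Poisson for sums, exact conditional for ratios, Clopper-Pearson for shares and Newcombe for differences of shares. Shares of cells used cells thinned to 2000 UMIs. The libraries held 2560763 (A20 cKO day 3) and 7336230 (control day 3) UMIs in all barcodes. No doublet caller was run: the sort excluded doublets, which does not remove cells that shared a droplet, and barcodes over 3 times the median UMIs were left out as an alternative. Calculations used Python 3.11.15, numpy 2.4.6, scipy 1.17.1 and, for TMM factors, edgeR 4.0.16, and were checked on simulated counts.

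Named genes are the 15 largest ratios in each direction at a mean of at least 50 CPM (leaving out predicted genes, Xist, Y-linked genes and those of mitochondria and ribosomal proteins), the most abundant member and up to 4 members with the largest ratios of each list, Tnfaip3 and the 3 most abundant genes. Names outside this rule are marked as such, and a few genes it names are not reported here. The comparison, the lists and the rule were chosen with earlier results of these data known. Promoter windows are from RefSeq. Alternatives in scaling, gene and cell filters, fold, thinning and left-out barcodes are given at the end.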

Additional observations from a re-analysis of the deposited data

Results flagged for a closer look

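The A20 cKO to control ratio of 4 genes named above pointed the other way on another day, past 2-fold in both cases. The difference between days was not tested, since each group had 1 library. Control naive, day 1 and day 2 stand apart from control day 3, so genotype on those days and that split cannot be told apart. Egr1, an immediate-early transcription factor, had a log2 ratio of 1.40 on day 3 and of -6.18 on day 1 and -2.59 on day 2, and of 4.19, the direction of day 3, in naive animals. Its control level was 848 CPM on day 1 and its A20 cKO level 11.6 CPM. Atf3, a stress-induced transcription factor, was at 1.04 on day 3, -4.34 on day 1, 0.31 in naive animals and -0.23 on day 2. The I-kappa-B family gene Nfkbiz was at 1.26 on day 3, -1.96 on day 1, 1.04 in naive animals and 1.29 on day 2. Ddit4, an mTORC1 inhibitor, was at -1.51 on day 3 and at 4.65 in naive animals, 3.61 on day 1 and 2.04 on day 2. Its control level was 191 CPM on day 3 and no more than 23.2 CPM in the other 3 control libraries.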

How the results depend on the processing

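No paired analysis was possible because each group had 1 library. Of 54 named genes past 2-fold, 52 kept it under all 11 alternatives for summed UMIs, and 0 reversed. Many of them were named for a large ratio in these same sums, so this count was partly set by the choice. The alternatives in the gene filter, at 20 UMIs and with none, leave the ratio of each gene unchanged. C5ar2 fell inside 2-fold with TMM and median-of-ratios factors (-0.94) and without cycling cells (-0.95), and Atf3 with a stricter cell filter (0.97). C3 moved by over 1.5-fold with the mean of cell CPM (5.94), without barcodes shared between libraries (9.72, with 0 control UMIs and so no bound) and without barcodes holding markers of another cell type (8.10), as did Cxcl13 (8.86) and Cdk5r1 (-2.39) without cycling cells. The counts of genes higher and lower became 369 and 546 at 20 UMIs per gene, 1636 and 1207 with no filter, and 423 and 841 at 1.5-fold (4.98% and 9.91%). The share of calls that were higher was 43.6%, and 58.4% with TMM and 58.8% with median-of-ratios factors. Both factors raise every median by about 0.12. Of 231 list medians under alternatives, 10 moved by more than the half-width of the counting interval at the median. Immediate-early genes were at 0.42 under TMM, under median-of-ratios factors and without barcodes of other types, at 0.40 with no gene filter and at 0.48 without cycling cells. Cathepsins and lysosome were at 0.26 under both factors, chemokines at 1.49 and complement at 0.27 with no gene filter, and histones at -0.31 without cycling cells. The replication difference was 4.46 points without thinning and 1.07 with another random thinning. Without thinning and at 1000 UMIs, the percentage of A20 cKO cells past the control percentile was 86.2 and 91.0 for MHC class I, 34.6 and 28.0 for interferon-stimulated genes, 75.4 and 50.2 for NF-kB effectors and 29.2 and 60.8 for homeostatic genes, and for disease-associated genes 52.7 at 1000 UMIs. Without their leading member, chosen after the values were seen, it was 90.5, 42.9, 46.3 and 50.7 for MHC class I, NF-kB effectors, homeostatic and disease-associated genes. The cause of these shifts was not tested. With 1 library a side, variation between animals and preparations is not measured.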
